A study of Mus musculus with 4 samples.

Results

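The MAPK feedback genes are a set of 10 genes tied to signalling through the Ras and ERK pathway or its sister MAP kinase pathways, most of them encoding inhibitors: Dusp1, Dusp4, Dusp5, Dusp6, Spry1, Spry2, Spry4, Spred1, Spred2 and Ier3. They were taken by symbol from a table of 23377 genes, and all 10 were present and passed the filter on low counts. Their messenger RNA was measured in 4 libraries of mouse cancer-associated fibroblasts (CAFs), the fibroblasts that live within a tumour. The 2 RES4 libraries carry the label of a resistant tumour and are called resistant here, and the 2 WTA libraries carry the label of a normal tumour and are called normal. The labels give no strain, age, genotype, treatment or sort for either group. Within a group the titles differ only in the replicate number, and nothing says whether replicates were separate cultures or animals. Each p-value thus reflects how far these particular libraries lie from each other, for reasons that may partly be technical, and each group may come from 1 tumour or culture.

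Growth factor receptors activate Ras, which starts a relay of kinases that ends in MEK and ERK, and active ERK switches on genes that restrain the relay. The Dusp genes encode dual-specificity phosphatases that remove the activating phosphates from MAP kinases: DUSP6 is cytoplasmic and prefers ERK, DUSP5 is nuclear and prefers ERK, and DUSP1 and DUSP4 are nuclear and also act on the kinases p38 and JNK. Sprouty and Spred proteins act higher up, between the receptor and the kinase relay, and SPRED proteins bring neurofibromin, which inactivates Ras, to the membrane. IER3 is an early response protein that ERK phosphorylates and that acts on cell survival. Because ERK induces many of these genes, their RNA is often read as a trace of recent pathway activity in fibroblasts and tumour cells.

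The stretches upstream of 4 members are shown: Spry1 and Spry2, which moved in opposite directions between the groups, and Dusp1 and Dusp5, which both fell well below their partner in 1 resistant library. Each is the 250 bases before the RefSeq start on build GRCm38.p6, written 5′ to 3′ along the gene's strand, at chr3:37639697-37639946 (plus strand), chr14:105896820-105897069 (minus), chr17:26508473-26508722 (minus) and chr19:53528895-53529144 (plus). Capitals mark matches, on either strand, to the cyclic AMP response element core TGACG, the full element TGACGTCA, or the CArG box that serum response factor binds.
Spry1: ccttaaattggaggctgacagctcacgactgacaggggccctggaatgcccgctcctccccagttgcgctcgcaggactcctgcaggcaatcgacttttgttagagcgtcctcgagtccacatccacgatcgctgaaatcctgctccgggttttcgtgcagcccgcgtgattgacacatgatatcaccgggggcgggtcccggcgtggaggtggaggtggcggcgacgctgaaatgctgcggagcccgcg
Spry2: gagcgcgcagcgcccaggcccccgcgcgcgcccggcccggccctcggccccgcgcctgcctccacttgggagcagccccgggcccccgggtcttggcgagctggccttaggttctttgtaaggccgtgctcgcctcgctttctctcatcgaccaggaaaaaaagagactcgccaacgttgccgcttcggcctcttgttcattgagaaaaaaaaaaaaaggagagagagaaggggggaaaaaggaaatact
Dusp1: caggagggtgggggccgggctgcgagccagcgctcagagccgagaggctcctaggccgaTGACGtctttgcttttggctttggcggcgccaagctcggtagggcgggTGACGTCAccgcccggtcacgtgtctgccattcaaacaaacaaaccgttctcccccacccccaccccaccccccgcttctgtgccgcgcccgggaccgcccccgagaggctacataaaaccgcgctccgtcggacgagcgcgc
Dusp5: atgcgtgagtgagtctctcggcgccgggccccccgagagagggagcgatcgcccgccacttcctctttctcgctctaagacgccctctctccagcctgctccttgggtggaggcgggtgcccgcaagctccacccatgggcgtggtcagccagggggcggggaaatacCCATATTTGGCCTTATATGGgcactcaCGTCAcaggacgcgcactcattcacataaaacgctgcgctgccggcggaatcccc
The Dusp1 stretch held 1 full element, from 143 to 136 bases before the start, which occurs in 1.55% of 32851 RefSeq promoter stretches of this length. It held 3 copies of the core, 2 of them inside the full element, where 17.8% of the stretches hold at least 1. G and C made up 68.4% of the Dusp1 stretch, with 28 CG pairs, beside medians of 52.4% and 6 over the 32851. The element and its core hold a CG pair, and the shares were not matched for this content. The Dusp5 stretch held 2 adjacent CArG boxes, from 82 to 73 and from 72 to 63 bases before the start, a motif found in 1.47% of the stretches, and 1 core from 55 to 51 bases before it. The letters of these motifs, and those of the ETS core CCGGAAG (6.91% of stretches), the AP-1 site TGANTCA (6.75%) and the TATA box TATAAA (12.4%), were not in the Spry1 or Spry2 windows. RefSeq entries were matched for 8 of the 10 members. Spred2 also lay well below its partner in 1 resistant library. Its stretch, not shown, held 1 core from 51 to 47 bases before the start. A link between these motifs and the levels was not tested.

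Library totals ran from 2785936 to 5558541 reads, and 12001 genes were tested. Pan-fibroblast and neural crest markers differed between the groups. All 11 tested pan-fibroblast markers were higher in resistant tumour CAFs. Summed levels were 8068 and 7628 CPM (read counts divided by the scaled library size, with the usual constant factor) in resistant libraries. In normal libraries they were 3132 and 2583 CPM. The markers differed unequally. Col1a1 stood at 1689 and 1703 CPM in resistant and 1180 and 965 CPM in normal libraries. Dcn had 243 and 346 reads in the resistant pair against 3 and 1 in the normal pair. Lum, too low to test, had 4 and 12 reads against 0 and 0. Of 8 tested Schwann cell and neural crest markers 7 were lower, with summed levels of 46.8 and 31.2 CPM in resistant and 1330 and 1200 CPM in normal libraries, and Foxd3 and Sox2 had no read in the resistant ones. Leukocyte markers summed to 17.1 and 18.4 CPM in resistant and 8.18 and 7.24 CPM in normal libraries, with 1 of 3 tested higher: Lyz2, at 20 and 21 reads in the resistant pair against 2 and 7 in the normal pair. Csf1r and Cd68 had reads in every library and did not pass. The leukocyte markers Ptprc and Cd3e and the epithelial markers Epcam and Cdh1 had no read in any library, and summed endothelial markers stayed between 1.47 and 2.66 CPM. The summed epithelial list was 45.7 and 63.9 CPM in resistant libraries, all of it Krt19, and 9.66 and 9.26 CPM in normal ones. Pericyte and smooth muscle markers summed to 317 and 433 CPM in resistant and 848 and 716 CPM in normal libraries. Of 6 tested, 2 were higher and 2 lower. Melanocyte markers summed to 41.1 and 27.5 CPM in resistant and 30.0 and 35.2 CPM in normal libraries. Of 2 tested, 0 were higher and 0 lower. The part of cell type in the differences described here was not tested, and in bulk RNA fewer cells of a type and less RNA per cell cannot be told apart.

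Of the 10 feedback genes, 4 were higher in resistant tumour CAFs (Spry1, Spry4, Spred1 and Ier3), 1 was lower (Spry2), and 5 did not pass the test (Dusp1, Dusp4, Dusp5, Dusp6 and Spred2). A gene passed with a Benjamini-Hochberg adjusted p under 0.05 over all genes in edgeR's quasi-likelihood test. Of all genes tested, 29.4% passed, with 15.5% of all genes higher and 13.9% lower in resistant tumour CAFs. The median log2 fold change of the 10 was 0.15, beside -0.0036 for all genes tested. The calls lay in the Sprouty and Spred families and in Ier3, and none of the 4 Dusp members passed, with Dusp5 reaching an unadjusted edgeR p of 0.0443 and no call among them by DESeq2, limma-voom or the likelihood ratio test. The groups did not overlap for 5 members that were higher in the resistant and 3 that were higher in the normal libraries, beside 31.9% and 32.9% of all genes tested, or 64.7% together. Without either single normal replicate fewer members were called higher, and fewer of all genes were called too, in both directions. Without either single resistant replicate as many members were called higher as with all libraries, while the number called lower changed.

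**Figure D1:**
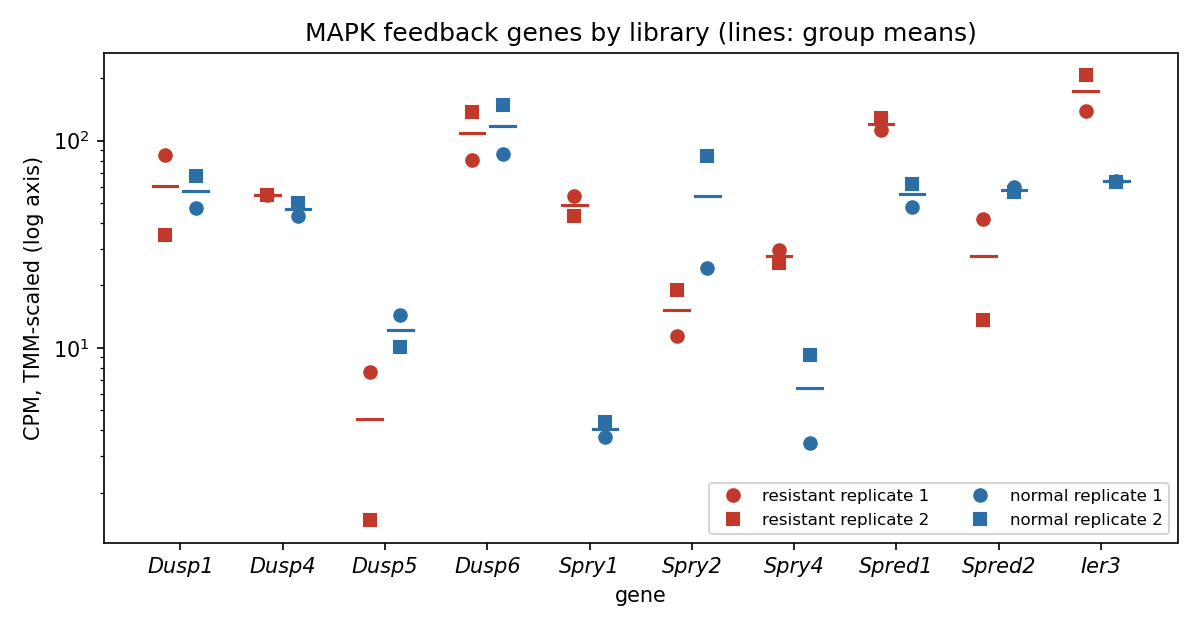
Level of each feedback gene in CPM on a log axis, by library: circles are replicate 1, squares replicate 2, red resistant and blue normal, and short lines are group means. Spry1 lies at 43.3 and 54.0 CPM in the resistant and at 3.72 and 4.38 CPM in the normal libraries, while the Dusp1 and Dusp6 points of the groups overlap.

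Sprouty genes changed in opposite directions. Spry1, a membrane-associated inhibitor of receptor tyrosine kinase signalling, had 142 and 118 reads in the resistant pair against 15 and 26 in the normal pair (replicate 1 given first throughout). Scaled to library size these were 54.0 and 43.3 CPM against 3.72 and 4.38 CPM, so every resistant library lay above every normal one. Spry1 was 11.9-fold higher in the resistant group, or 3.57 ± 0.46 on the log2 scale (SE, n = 2 libraries a group; edgeR quasi-likelihood adjusted p = 1.02e-04). It passed in all 14 alternative fits, with log2 fold changes from 3.40 to 3.72, and it was the 1 member called in the authors' deposited table, where its log2 fold change was 3.55 with a standard error of 0.51.

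Spry4, a Sprouty that also blocks Ras activation downstream of receptors, had 78 and 70 reads in the resistant pair against 14 and 55 in the normal pair. Its levels were 29.7 and 25.7 CPM in resistant replicates 1 and 2, and 3.47 and 9.26 CPM in normal replicates 1 and 2. The groups did not overlap, and normal replicate 2 was the higher normal library. Spry4 rose by 2.08 ± 0.51 on the log2 scale (edgeR adjusted p = 0.00827), and without normal replicate 1 it was 1.51 and did not pass (edgeR adjusted p = 0.147).

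Spry2, an inhibitor that binds the ubiquitin ligase CBL and the adaptor GRB2, had 30 and 52 reads in the resistant pair against 98 and 499 in the normal pair. Its levels were 11.4 and 19.1 CPM in resistant replicates 1 and 2, and 24.3 and 84.0 CPM in normal replicates 1 and 2. The groups did not overlap, but the normal replicates lay further apart than normal replicate 1 lay from either resistant library. The log2 fold change was -1.83 ± 0.56 (edgeR adjusted p = 0.0275). Without normal replicate 2 it was -0.70 (edgeR adjusted p = 0.628), without resistant replicate 1 it was -1.51 (edgeR adjusted p = 0.148) and without resistant replicate 2 it was -2.26 (edgeR adjusted p = 0.0809). Offsets that flatten the trend of every library along reads per exonic base also left it short of the threshold (-1.69, edgeR adjusted p = 0.0531).

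Levels of different genes were compared per exonic length, as CPM divided by exonic length in kilobases (RPKM). Spry1 made up 61.4% and 50.6% of the summed RPKM of Spry1, Spry2 and Spry4 in resistant replicates 1 and 2, and 9.37% and 3.45% in normal replicates 1 and 2. The share of Spry2 was 18.0% and 31.1% in the resistant and 85.3% and 92.1% in the normal libraries. The most abundant Sprouty transcript was thus Spry1 in each resistant library and Spry2 in each normal library. The sum of the 3 genes was 30.3 and 29.5 RPKM in the resistant libraries, which lies between normal replicate 1 at 13.6 RPKM and normal replicate 2 at 43.7 RPKM.

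**Figure D2:**
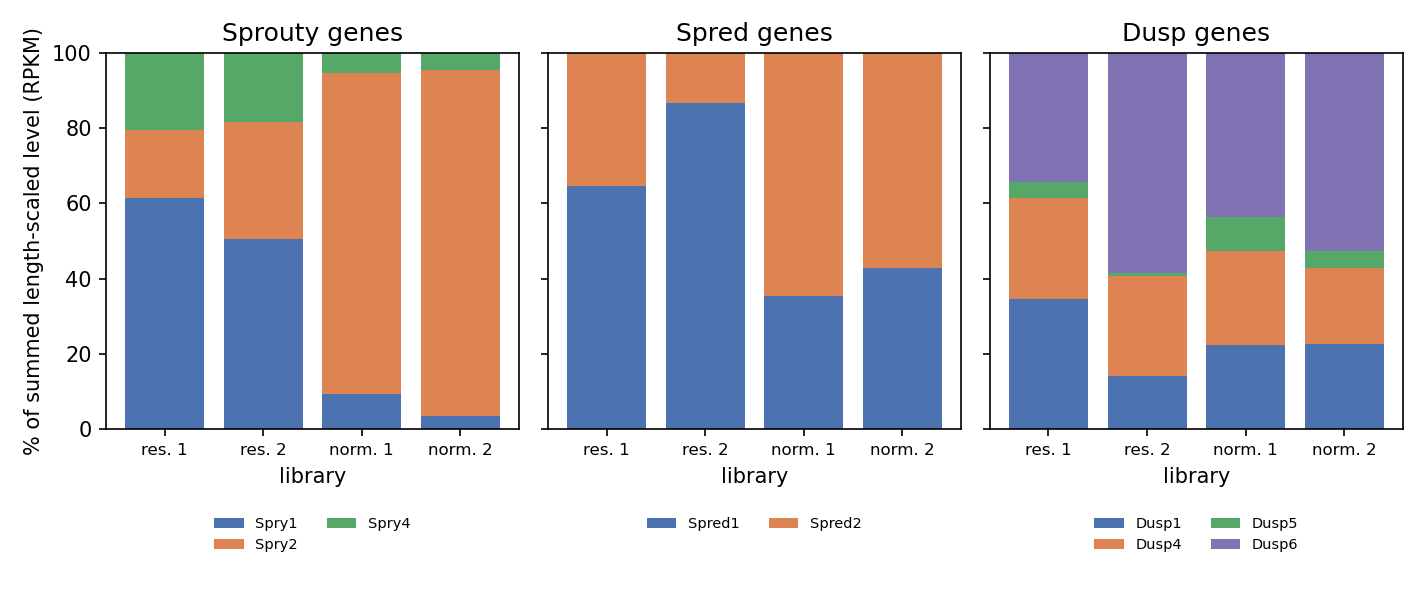
Share of each gene in its family's summed length-scaled level (RPKM), in percent, by library (res., resistant; norm., normal). The Spry1 share is 61.4% and 50.6% in the resistant and 9.37% and 3.45% in the normal libraries, the Spred1 share exceeds the Spred2 share only in the resistant libraries, and the Dusp1 and Dusp6 shares of the groups interleave.

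Of the Spred genes, Spred1 rose and Spred2 did not pass the test. Spred1, which partners with neurofibromin, had 295 and 352 reads in the resistant pair against 194 and 368 in the normal pair. Its levels were 112 and 129 CPM against 48.1 and 61.9 CPM, and the groups did not overlap. Spred1 rose by 1.13 ± 0.33 on the log2 scale (edgeR adjusted p = 0.0201). It did not pass without normal replicate 1 (0.90, edgeR adjusted p = 0.421) or normal replicate 2 (1.29, edgeR adjusted p = 0.228).

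Spred2, the close relative of Spred1, had 110 and 37 reads in the resistant pair against 242 and 334 in the normal pair. Its levels were 41.9 and 13.6 CPM in resistant replicates 1 and 2, and 60.0 and 56.2 CPM in normal replicates 1 and 2. The groups did not overlap, while the resistant replicates were far apart and the normal ones close. The log2 fold change was -1.07 ± 0.49 (edgeR adjusted p = 0.123). It passed without resistant replicate 1 (-2.09, edgeR adjusted p = 0.00505), where the lower resistant library alone stood for its group. It also passed with library totals alone as scaling (-1.22, edgeR adjusted p = 0.0407) and with no low-count filter (-1.13, edgeR adjusted p = 0.0385). Per length, Spred1 made up 64.6% and 86.6% of the summed Spred1 and Spred2 level in the resistant libraries and 35.3% and 42.9% in the normal libraries.

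No Dusp member passed the reported test; Dusp5 did under some alternatives, given with its values. Dusp6, the cytoplasmic ERK phosphatase gene and the member with the highest mean level per length after Ier3 in each group, had 211 and 376 reads in the resistant pair against 350 and 888 in the normal pair. Its levels were 80.3 and 138 CPM against 86.7 and 149 CPM, so each group held a low and a high library and the ranges overlapped. The log2 fold change was -0.12 ± 0.36 (edgeR adjusted p = 0.852). It was 0.23 without resistant replicate 1 and 0.30 without normal replicate 2, neither past the test.

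Dusp4, whose nuclear product acts on ERK and JNK, stood at 54.8 and 54.7 CPM in the resistant and 43.1 and 50.2 CPM in the normal libraries (144, 149, 174 and 298 reads). The resistant values were nearly equal and just above both normal ones, and the log2 fold change was 0.23 ± 0.36 (edgeR adjusted p = 0.682). Dusp1, the classical early response phosphatase gene, had 225 and 95 reads in the resistant pair against 190 and 402 in the normal pair. These were 85.6 and 34.9 CPM against 47.1 and 67.7 CPM, with the highest and the lowest level both in the resistant group. The log2 fold change was 0.067 ± 0.44 (edgeR adjusted p = 0.929). It changed sign without resistant replicate 1 (-0.72) and without normal replicate 1 (-0.25), and with library totals alone (-0.091) or limma-voom (-0.073); none of these passed. In GENCODE vM21 an exon of Dusp1 overlaps one of Ergic1 on the opposite strand. Whether counting used strand is not given in the sources used here, so reads there cannot be told apart. For Ergic1 itself the log2 difference was 0.23 ± 0.25, short of the threshold. Dusp5 and Spry1 also overlap opposite-strand genes, neither of them in the count table.

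Dusp5, the nuclear ERK phosphatase gene, was the least abundant member per length in the resistant group. It had 20 and 4 reads in the resistant pair against 58 and 60 in the normal pair, or 7.61 and 1.47 CPM against 14.4 and 10.1 CPM. The groups did not overlap, and resistant replicate 2 stood far below the rest. Dusp5 had a log2 fold change of -1.42 ± 0.64 (edgeR adjusted p = 0.116). It was -3.02 without resistant replicate 1, which passed (edgeR adjusted p = 0.0188), and -0.67 without resistant replicate 2, which did not (edgeR adjusted p = 0.363). It passed as well with library totals alone (-1.57, edgeR adjusted p = 0.0398) and with no low-count filter (-1.48, edgeR adjusted p = 0.0228).

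Ier3 was the most abundant member per length in both groups, at 153 ± 42.1 RPKM (mean ± SD, n = 2) in resistant and 56.3 ± 0.658 RPKM in normal tumour CAFs. It had 367 and 564 reads in the resistant pair against 259 and 375 in the normal pair, or 140 and 207 CPM against 64.2 and 63.1 CPM. Each resistant library lay above both normal ones, which were almost equal. Ier3 was 2.72-fold higher in the resistant group, or 1.45 ± 0.31 on the log2 scale (edgeR adjusted p = 0.00400). It did not pass without normal replicate 1 (1.40, edgeR adjusted p = 0.0981) or normal replicate 2 (1.40, edgeR adjusted p = 0.113).

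The order of levels per length differed between the groups below Ier3 and Dusp6. In resistant tumour CAFs Dusp6 (34.8 ± 13.0 RPKM, mean ± SD, n = 2) was followed by Dusp4, Dusp1, Spred1 and Spry1, whose means lay between 16.7 and 20.0 RPKM and whose neighbouring ranges overlapped. Spry2, Spred2 and Spry4 followed at means of 5.82 to 7.31 RPKM, again overlapping, and Dusp5 came last at 1.84 ± 1.76 RPKM. In normal tumour CAFs Dusp6 (37.7 ± 14.2 RPKM), Spry2 (25.9 ± 20.2 RPKM), Dusp1 and Dusp4 overlapped with their neighbours. Spred2, Spred1 and Dusp5 followed with ranges apart, and Spry1 (1.39 ± 0.161 RPKM) and Spry4 (1.34 ± 0.861 RPKM) came last and overlapped.

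**Figure D3:**
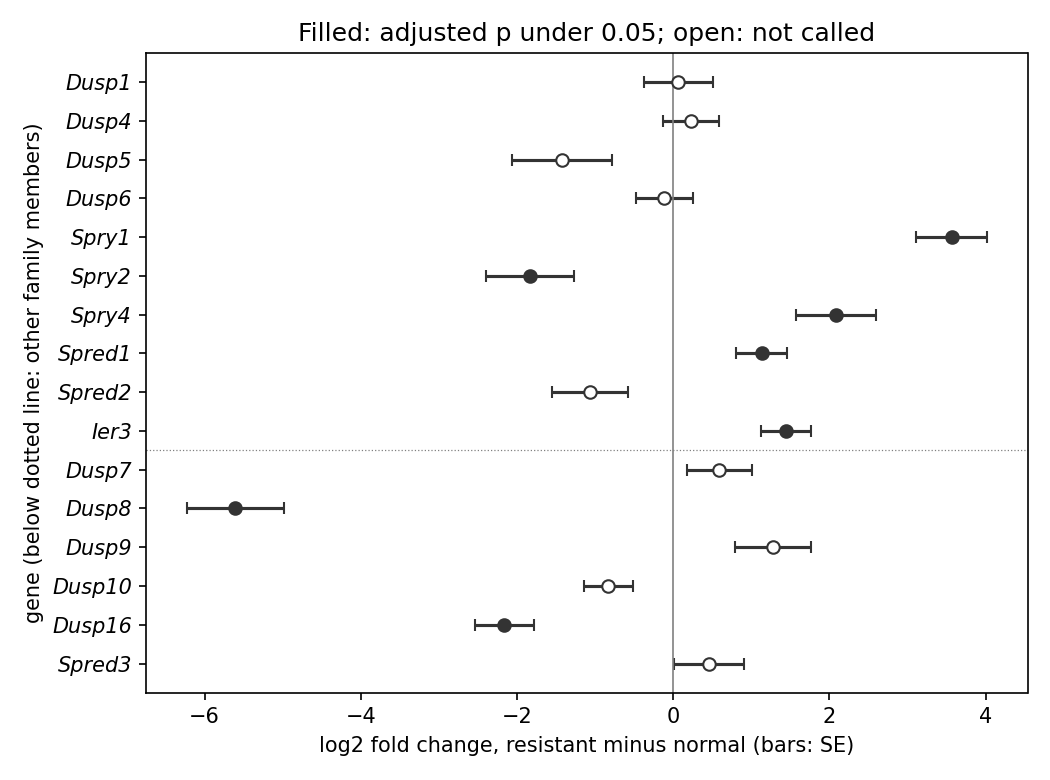
Log2 fold change, resistant minus normal, of the 10 feedback genes and, below the dotted line, of the other tested genes of their families; bars are standard errors, filled points passed edgeR's test and open points did not. The Dusp points above the line are all open, while Spry1 lies at 3.57 and Spry2 at -1.83, and Dusp8 lies furthest to the left at -5.61.

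Several members differed between replicates of a group more than most genes did. The median absolute log2 difference between replicates was 0.64 for the 10 members and 0.48 for all tested genes in the resistant group, and 0.43 and 0.24 in the normal group. Between the normal replicates Spry2 differed by 1.77 on the log2 scale and Spry4 by 1.29, both higher in replicate 2. Of all tested genes, 99.3% differed less than Spry2 and 97.6% less than Spry4. Between the resistant replicates Dusp5 (-2.03), Spred2 (-1.59) and Dusp1 (-1.28) were lower in replicate 2, and 98.5%, 95.9% and 91.9% of tested genes differed less. Of other ERK target genes, 11 of 15 tested were higher in normal replicate 2, with a median of 0.26. Of all tested genes 50.2% were higher and the median was 0.0015. The direction was not particular to ERK targets: 5 of 5 other MAP kinase phosphatase, 8 of 10 atypical phosphatase and 12 of 18 immediate early genes were higher. Fewer were higher among receptor tyrosine kinases (2 of 22), other Ras and ERK inhibitors (4 of 17), the ERK cascade (10 of 24) and the JNK and p38 cascade (5 of 14). Of the members, 7 of 10 were higher in normal replicate 2.

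The other MAP kinase phosphatase genes included the largest fall in the family. Dusp8, which encodes a phosphatase of JNK and p38, had 1 and 3 reads in the resistant pair against 145 and 237 in the normal pair. The mean level was 0.741 ± 0.510 CPM (SD, n = 2) in the resistant group and 37.9 ± 2.80 CPM in the normal group. The log2 fold change was -5.61 ± 0.62 (edgeR adjusted p = 4.15e-05). Its size rests on few reads in the resistant pair, and it ran from -6.53 to -5.06 over the 14 alternative fits. Dusp16, another phosphatase gene of the JNK branch, had a log2 fold change of -2.16 ± 0.38 (edgeR adjusted p = 9.14e-04). In all, 2 of 5 tested genes fell and 0 rose in edgeR's quasi-likelihood test, or 40% beside 29.4% of all genes. At an unadjusted p under 0.05 there was 1 rise, DESeq2 and limma-voom called 0 and the likelihood ratio test 1, and without either single resistant replicate 1 rose. Dusp10 (-0.83 ± 0.31), Dusp9 (1.28 ± 0.49) and Dusp7 (0.59 ± 0.42) did not pass. Without resistant replicate 1 or 2 Dusp10 did pass (edgeR adjusted p = 0.0353 and 0.0299). Dusp7 passed without resistant replicate 1 (1.03, edgeR adjusted p = 0.0332) and was -0.024 without resistant replicate 2, and Dusp9 passed without resistant replicate 2 (1.62, edgeR adjusted p = 0.0438). Dusp2 had 0 and 0 reads in the resistant pair against 4 and 6 in the normal pair and was too low to test, and Spred3 had 0.46 ± 0.45 and did not pass. Of 10 tested atypical dual-specificity phosphatase genes 3 fell and 0 rose by the quasi-likelihood test, or 30%, near the 29.4% of all genes. Their rises were 1 at an unadjusted p under 0.05, 0 by DESeq2 and limma-voom and 1 by the likelihood ratio test. The 3 that fell were Dusp3 (-3.58 ± 0.34), Dusp28 (-2.90 ± 0.54) and Dusp14 (-2.12 ± 0.44).

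Target genes of ERK that are not feedback inhibitors also moved in both directions. Of 15 tested, 3 rose and 7 fell, or 66.7% beside the 29.4% of all genes, with a median log2 fold change of -0.74. The fallen genes were 4 without resistant replicate 2 and 2 without normal replicate 2. The ETS factor gene Etv1 rose by 4.86 ± 0.52 and Myc by 2.06 ± 0.25 (edgeR adjusted p = 3.28e-05 and 6.93e-05). Etv5, an ETS factor gene that commonly follows FGF and ERK activity, rose by 1.19 ± 0.34 but did not pass without normal replicate 1 (0.81) or normal replicate 2 (1.56). The ephrin receptor gene Epha2 fell by 2.48 ± 0.47 on the log2 scale and the cytokine genes Lif (-2.35 ± 0.48) and Il11 (-1.76 ± 0.45) fell as well. Il11 did not pass without normal replicate 2 (-1.47, edgeR adjusted p = 0.129).

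Among other inhibitors of Ras and ERK signalling, 6 of 17 tested genes rose and 1 fell, or 41.2% beside 29.4% of all genes. Their median log2 fold change was 0.63. Rgs4, an inhibitor of G protein signalling, rose by 6.04 ± 0.44 (edgeR adjusted p = 3.82e-06). Cblb, a ubiquitin ligase for activated receptors, rose by 2.39 ± 0.37, and Errfi1, which encodes a feedback inhibitor of EGFR, by 2.29 ± 0.41. Pea15a, whose product holds ERK in the cytoplasm, had -0.95 ± 0.26 and did not pass without normal replicate 1 or 2 (edgeR adjusted p = 0.191 and 0.199). The gene of the SPRED partner neurofibromin, Nf1, which was named after its values were seen, had 0.36 ± 0.41 and did not pass; without resistant replicate 1 it stood at -0.30. Fewer genes of this list rose without resistant replicate 1 or either single normal replicate, and the number that fell also changed in those fits.

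Of 24 tested genes of the ERK cascade itself, 3 rose and 5 fell, or 33.3% beside 29.4% of all genes. The adaptor gene Shc1 rose by 1.75 ± 0.23 (edgeR adjusted p = 1.34e-04). Hras1 (-1.93 ± 0.41) and Mras (-2.52 ± 0.57) fell. The scaffold gene Ksr1 rose by 2.44 ± 0.61 and the FGF receptor adaptor gene Frs2 by 1.08 ± 0.34, but without resistant replicate 1 Ksr1 had 2.04 (edgeR adjusted p = 0.0704) and Frs2 0.48 (edgeR adjusted p = 0.156). Without normal replicate 2 they had 1.71 (edgeR adjusted p = 0.129) and 0.85 (edgeR adjusted p = 0.343), and Frs2 did not pass without normal replicate 1 either (edgeR adjusted p = 0.105). The list then held 1 rise without resistant replicate 1 or normal replicate 2, and 8 falls without resistant replicate 1. The JNK and p38 cascade, which DUSP1 and DUSP4 also restrain, had 3 rises and 2 falls among 14 tested genes, or 35.7%. Mapk13, a p38 isoform gene, rose from 1 and 0 reads in the normal to 12 and 14 reads in the resistant libraries, a pooled ratio of 48.5 (95% counting interval 7.96 to 1987). Mapk12, another p38 isoform gene, had -2.75 ± 0.59. The rises were 1 without resistant replicate 2, normal replicate 1 or normal replicate 2, and the falls 1 without normal replicate 1.

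Of 22 tested receptor tyrosine kinase genes, whose products stand upstream of the Sprouty and Spred proteins, 8 rose and 5 fell, or 59.1% beside 29.4% of all genes. Pdgfra rose by 5.78 ± 0.52, Ddr2 by 2.52 ± 0.28 and Pdgfrb by 2.10 ± 0.27. Met (-3.28 ± 0.33) and Fgfr3 (-3.37 ± 0.49) fell. So did Erbb3, with 0 and 3 reads in the resistant pair against 1010 and 1110 in the normal pair, which makes the pooled normal level 379 times the resistant one (exact 95% bounds for counting error 129.5 to 1839.8). Pdgfra and Pdgfrb are also in the pan-fibroblast list and Erbb3 in the neural crest list given above. The rises were 5 without normal replicate 1 and 4 without normal replicate 2, and the falls 8 without resistant replicate 1. Of 18 tested immediate early genes, the class to which Dusp1 and Ier3 belong, 2 rose and 3 fell, 27.8% in all. Atf3 had -4.68 ± 0.41, at 13 and 23 reads in the resistant pair against 723 and 984 in the normal pair. Egr1 (1.29 ± 0.44, edgeR adjusted p = 0.0411) rose but did not pass without resistant replicate 1 (0.42) or either normal replicate (1.25 and 1.21). The rises were 0 without either single normal replicate, and the falls were 5 without resistant replicate 1 and 1 without resistant replicate 2 or normal replicate 2.

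The authors' deposited table gave all 10 members the same directions as the fit here. Genes it calls differ by 2 or more on the log2 scale, with adjusted p up to 0.0999 by the authors' test. Its statistic is 0 for 9194 genes, none beyond 1.01 on that scale. The authors' test was thus not against a difference of 0, as the test here was, and the adjusted p of the 2 cannot be compared. By the authors' deposited table a call was made for 1 of the 10 members, beside 10.1% of the 13417 genes with an adjusted p. Spry4 (2.07, adjusted p = 0.538) and Spry2 (-1.86, adjusted p = 0.818) were not called there, and Dusp1, Dusp4 and Dusp6 had a statistic of 0.

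**Figure D4:**
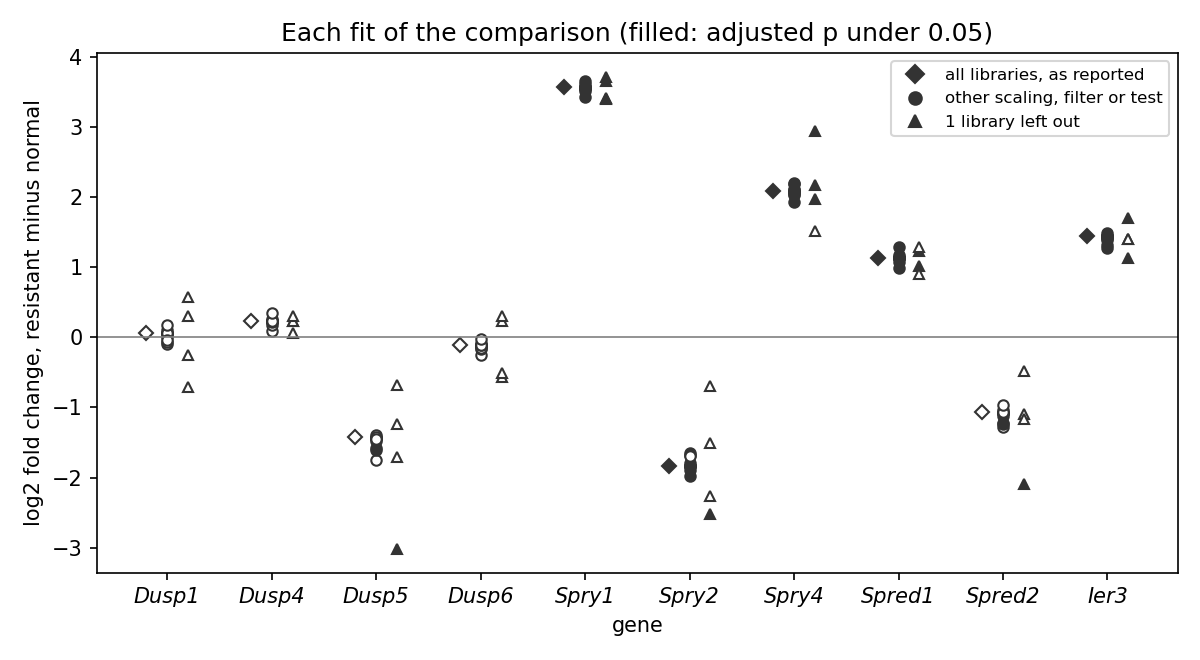
Log2 fold change of each feedback gene, resistant minus normal, in every fit: diamonds are the fit reported, circles another scaling, filter, block or test, and triangles 1 library left out; filled symbols passed with an adjusted p under 0.05. All Spry1 symbols are filled and lie between 3.40 and 3.72, all Dusp4 and Dusp6 symbols are open, and the Spry2 triangles spread from -2.52 to -0.70.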

How the data were processed

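Raw read counts per gene symbol were used as the authors deposited them. Per the submitters' processing notes DESeq2, HTSeq 0.7.2, Picard 1.62, TopHat2 2.1.1 and bcl2fastq 2 were run on the mm9 build; what each did, and the annotation, is not given in the sources used here. Per the labels' protocols both a TruSeq kit and SMART-seq2 served for libraries, without saying which for which. The deposited normalized signal table is the authors' counts divided by 1 size factor per library. In the authors' deposited table, log2 fold changes are positive where the resistant group was higher, the score is their test statistic, and the p-values belong to it; the other columns hold text.

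The comparison used edgeR 4.0.16 (R 4.3.3): filterByExpr (minimum count 10), TMM scaling, and a quasi-likelihood F test with the group as the only term, all 4 libraries, Benjamini-Hochberg adjustment over 12001 genes. The procedure was tested on simulated data. CPM use TMM-scaled library sizes, replicate differences use log2 CPM with a prior count of 2, and SE is the log2 fold change over the root of F. Exonic lengths came from GENCODE vM21, matched for 99.4% of tested genes. A count of 0 allows up to 3 reads, or 0.505 to 1.14 CPM by library (counting error only). There were no molecular identifiers.

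The alternatives tried other tests (the likelihood ratio test, limma-voom from limma 3.58.1, DESeq2 1.42.0), other scaling (upper quartile, relative log expression, library totals), other filters (none, or 50 reads in 2 libraries), the replicate number as a block, offsets removing each library's loess trend (span 0.5) along reads per exonic base, and each library left out. The members, lists and alternatives were chosen with earlier results of these data known. Named were all members, their family, and from each list up to 3 called genes a direction, by smallest adjusted p; some of these are not reported here. Promoter sequences are RefSeq's.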

Additional observations from a re-analysis of the deposited data

How the results depend on the processing

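The 4 rises among the feedback genes held in the 10 alternatives that kept all libraries, and ranged from 1 to 4 with a library left out. Where a library was left out, its partner stood alone and was taken to vary as much as the other group does. The number of falls was 1 in the reported fit, 3 with library totals alone, 3 with no low-count filter and 0 with read density accounted for, and 0 to 2 with a library left out; the cause was not tested. Over all genes 1078 to 2024 were higher and 951 to 2323 lower with a library left out. With library totals alone the median over all genes shifted by -0.14 (log2), with 1736 higher and 2150 lower against 1857 and 1668.

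The replicate numbers link no samples in the labels. Deviations of same-numbered libraries from their group means correlated at r = 0.217 across 12001 genes. With the replicate block 4 members rose and 3 fell, as Dusp5 (adjusted p = 0.0121) and Spred2 (adjusted p = 0.00555) passed, and 2257 genes were higher and 2267 lower in all. For some genes the sign differed between fits. Dusp1 had -0.036 with the block, -0.091 with library totals and -0.073 with limma-voom. With a library left out Dusp1 ranged from -0.72 to 0.57, Dusp6 from -0.56 to 0.30, Dusp7 from -0.024 to 1.03 and Nf1 from -0.30 to 0.95. With 4 reads Dusp5 was the member most limited by depth.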
